A study of Homo sapiens with 12 samples.

Results

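Pre-mRNA splicing genes were followed across the 6 conditions of an RNA-seq experiment on 2 diffuse large B cell lymphoma (DLBCL) lines. The set held 48 of the 58884 genes in the count table, taken by name: 12 SR proteins, 6 CLK and SRPK kinases, 18 heterogeneous nuclear ribonucleoproteins (hnRNPs, with PTBP1), the cold-inducible RNA-binding proteins RBM3 and CIRBP, the splicing regulators RBM25 and RBM39, and 8 core spliceosome genes. Measured values played no part in the choice of rows, and all 48 were found and passed the filter on low counts in both lines.

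The spliceosome removes introns in steps. SF1 and the U2AF1 and U2AF2 proteins mark the branch point and the end of the intron, SF3B1 anchors the U2 particle there, and PRPF8, EFTUD2 and SNRNP200 form the centre of the U5 particle. SR proteins mostly bind exons and help their recognition, hnRNPs often repress it, and the SRPK and CLK kinases phosphorylate SR proteins in the cytoplasm and the nucleus. RBM3 and CIRBP are RNA-binding proteins whose expression rises under mild cold.

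U2932 and TMD8, both wild type, were treated for 4 h with 20 µg/mL of rituximab (R), ofatumumab (OF) or a human IgG1 isotype control. R and OF are monoclonal antibodies to CD20, the B cell surface protein encoded by MS4A1, and they bind different epitopes of it. Each line was divided into 2 cultures that were kept apart for a week and then treated, which gave 2 libraries for each line and antibody and 12 in all. Each line is a single tumour-derived cell line, and a p-value here measures the spread between these cultures.

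Libraries held 15440226 to 27110612 counts, and the 48 genes took 2.30 to 2.65% of each library. The B cell markers MS4A1, CD79A and PAX5 passed the filter in both lines, while CD3D, CD3G and CD2 of the T cell markers had 0 counts in all 4 isotype libraries. A pair of TMD8 libraries, OF replicate 2 and isotype replicate 2, differed from the remaining 4 in composition, with 7.78% and 7.05% of counts on ribosomal protein genes against 10.9 to 11.8%. The counts of calls in comparisons that include these 2 libraries are also given without them. In U2932, ribosomal protein genes took 4.90 to 5.24% of counts with isotype and 6.69 to 7.27% with either anti-CD20 antibody.

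Under the isotype control HNRNPC, HNRNPA1 and HNRNPA2B1 had the highest levels per kb of the 48 genes in both lines. Levels between genes and lines were set on CPM, counts scaled to a common library total and normalized over all 12 libraries, per kb of the gene's principal transcript. HNRNPC, which packages nascent transcripts, stood at 617 CPM per kb in U2932 and 566 in TMD8. HNRNPA1, a widely acting splicing repressor, stood at 532 and 544, and its relative HNRNPA2B1 at 529 and 526. At the low end, the nuclear SR protein kinase CLK4 stood at 10.7 in U2932 and 11.9 in TMD8, and the SR protein kinase SRPK2 at 13.1 and 17.5. U2AF1 stood at 16.2 and 13.8, but it shares its sequence with a near-identical annotated copy, U2AF1L5, and reads that fit both could have been left uncounted, so its level is uncertain.

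Of the 48 genes, 20 differed between the lines under isotype (edgeR quasi-likelihood test, Benjamini-Hochberg adjusted p under 0.10), 10 higher in TMD8 and 10 lower, beside 66.8% of all 16187 genes tested. At 1.5-fold or more the count was 11, beside 56.1% of all genes. CIRBP was 2.54-fold higher in TMD8 (log2 1.34 ± 0.13 SE, adjusted p = 3.39e-06), with 310.4 and 368 CPM per kb in its 2 TMD8 libraries against 141 and 127 in U2932. Its cold-inducible partner RBM3 stood at 83.9 and 62.2 in TMD8 and at 59.3 and 58.5 in U2932, and was not called. HNRNPA3, an A/B-type hnRNP, was 2.79-fold lower in TMD8 (192 and 162 against 474 and 514 CPM per kb), HNRNPR 2.28-fold, the SR protein SRSF10 2.06-fold and PTBP1, a repressor that binds pyrimidine tracts, 1.82-fold. Among the kinases, CLK1 was 1.54-fold lower in TMD8 and CLK2 1.53-fold higher. Among core genes, U2AF2 was 1.68-fold and SF1 1.59-fold higher in TMD8. The calls of CLK2 and SF1 were lost when single libraries were left out: the log2 difference of CLK2 ran from 0.31 to 0.87 (edgeR adjusted p up to 0.11) and that of SF1 from 0.23 to 1.01 (up to 0.32). Without the 2 TMD8 libraries that stood apart, 33 of the 48 were called, 18 higher and 15 lower, beside 70.1% of all genes. That fit held 1 TMD8 isotype library, so its calls rest on a spread taken from other conditions. The log2 differences between TMD8 and U2932 were then 1.22 for CIRBP, 0.51 for RBM3, -1.36 for HNRNPA3, -1.14 for HNRNPR and -0.90 for SRSF10. They were -1.17 for PTBP1, -0.42 for CLK1, 0.30 for CLK2, 0.52 for U2AF2 and 0.23 for SF1.

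**Figure D1:**
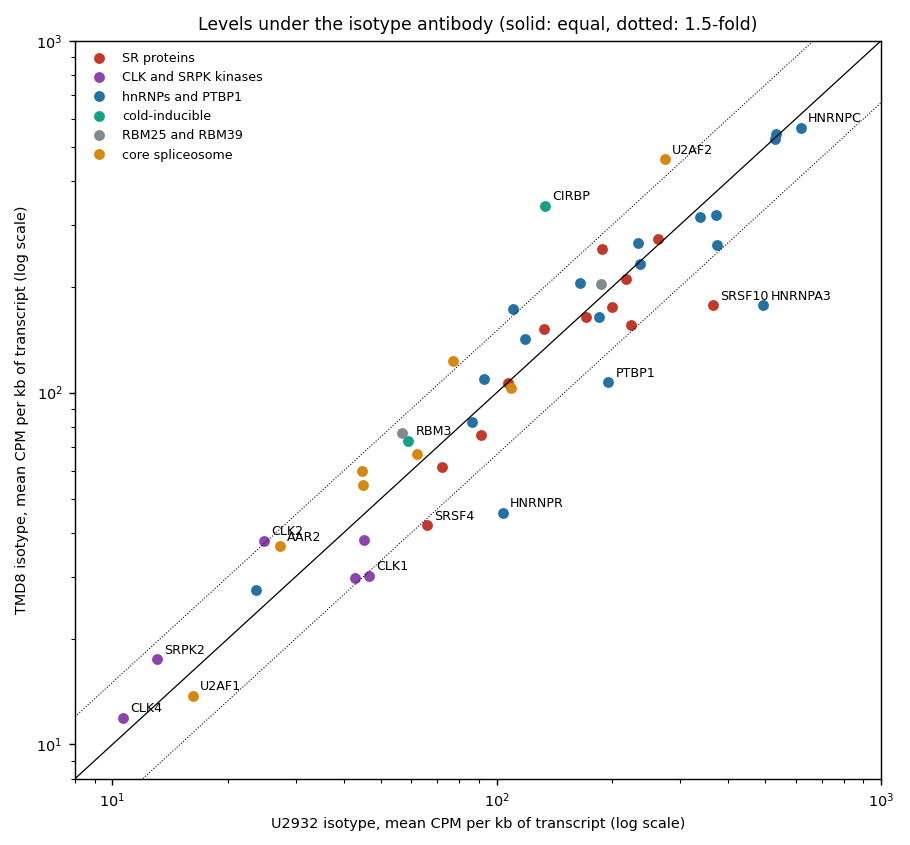
Mean level of each of the 48 genes under isotype in U2932 (x axis) and TMD8 (y axis), in CPM per kb of transcript on log scales, with 2 libraries per line, colour by group, a solid line at equality and dotted lines at 1.5-fold. CIRBP lies furthest above the upper dotted line, at 339 in TMD8 and 134 in U2932, and HNRNPA3 furthest below the lower one, at 177 and 494.

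In U2932, R changed 17 of the 48 genes against isotype, 6 higher and 11 lower, which is 35.4% beside 34.2% of the 14635 genes tested. In bulk RNA, fewer expressing cells and less RNA per cell cannot be told apart. OF changed 19, 2 higher and 17 lower, which is 39.6% beside 36.4%. The share called was thus near that of all genes with both antibodies. Changes were small: none of the 48 passed 1.5-fold with R and 1 did with OF, beside 10.2% and 11.1% of all genes. The median log2 fold change was -0.10 with R and -0.08 with OF, and over all genes -0.02 and 0.01. The members' standard errors in the R comparison ran from 0.07 (HNRNPA1) to 0.13 (U2AF1), and the median over all genes was 0.12. The comparisons with R and with OF share the isotype libraries, so their values are set side by side below and not counted as separate evidence. When libraries were scaled by their totals alone, the median of all genes with R moved to -0.12 and the calls were 2 higher and 28 lower, 62.5% of the members beside 37% of all genes. After a correction for GC content, the calls with R were 25, 7 higher and 18 lower, beside 41% of all genes, and those with OF were 23, 6 higher and 17 lower, beside 40%. With R, HNRNPH3 was then called higher and HNRNPL, HNRNPUL1, PTBP1, CIRBP, SNRNP200, EFTUD2 and SF1 lower, and no call was lost. With OF, 10 members gained a call (HNRNPA0, HNRNPA1, HNRNPC, HNRNPK and RBM3 higher, and CLK3, HNRNPUL1, PTBP1, CIRBP and EFTUD2 lower) and 6 lost one.

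SR proteins made up the largest group of lower genes. Of the 12, R lowered 6 and raised 0 (SRSF2, SRSF3, SRSF5, SRSF6, SRSF7 and TRA2A), and OF lowered 9 and raised 0 (the same 6 with SRSF1, SRSF11 and TRA2B), beside 17.4% and 17.8% of all genes lower. The medians of the 12 log2 fold changes were -0.18 with R and -0.25 with OF.

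SRSF7, an exon-binding SR protein with a zinc knuckle that also acts in mRNA export, stood at 686 and 683 CPM in the 2 U2932 isotype libraries, at 460 and 480.1 with R and at 436 and 444 with OF. Every anti-CD20 library lay below both isotype libraries. It fell by 0.54 with R and by 0.64 with OF on the log2 scale (SE 0.08 each, adjusted p = 1.03e-05 and 1.16e-06 by edgeR's quasi-likelihood test). The change with OF was 1.56-fold, and no other member was past 1.5-fold in this line.

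SRSF6, another exon-binding SR protein, stood at 588 and 613 CPM with isotype, 426 and 442 with R and 432 and 439 with OF. Its log2 fold changes were -0.47 and -0.46, with no overlap between the isotype and anti-CD20 libraries. SRSF3, the smallest SR protein, stood at 832 and 828 with isotype and at 647 to 705 with either antibody, with log2 fold changes of -0.30 and -0.34. SRSF5 fell by 0.29 with R and by 0.39 with OF on the log2 scale. SRSF4 and SRSF10 were not called with either antibody, and SRSF9 had positive values (0.10 and 0.12) that were not called. After the GC correction SRSF11 and TRA2B were no longer called with OF (adjusted p = 0.42 and 0.32).

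The CLK kinases phosphorylate SR proteins in the nucleus and control where in the nucleus these sit. CLK1 stood at 89.4 and 94.7 CPM with isotype in U2932, at 79.9 and 84.2 with R and at 71.8 and 72.3 with OF. It fell by 0.35 on the log2 scale with OF (SE 0.09, edgeR adjusted p = 0.0050), and with R its value was -0.17 (SE 0.09, adjusted p = 0.19). The libraries of the 3 antibodies did not overlap, but the difference between R and OF for CLK1 was not called (log2 0.19, 95% interval -0.0045 to 0.38, adjusted p = 0.91). CLK3 stood at 82.8 and 83.0 with isotype, 70.7 and 70.9 with R and 72.7 and 75.2 with OF. Its log2 fold changes were -0.23 with R and -0.17 with OF (edgeR adjusted p = 0.066 and 0.19), the first a call. CLK3 overlaps EDC3 on the other strand, and EDC3 had log2 fold changes of -0.24 and -0.21 (edgeR adjusted p = 0.054 and 0.081). In all, 25 of the 48 genes overlap an annotated gene on the other strand. CLK2 (53.7 and 46.7 CPM with isotype, 50.4 and 48.7 with R, 48.9 and 49.8 with OF) and CLK4 (28.0 and 29.5, 28.4 and 28.0, 28.7 and 27.5) overlapped between all 3 antibodies. SRPK1 and SRPK2, the mainly cytoplasmic kinases of SR proteins, were not called. With the culture as a replicate block, SRPK2 was called lower with OF (log2 -0.21, edgeR adjusted p = 0.094). The block assumes a shift between replicates that all antibodies of a line share. In U2932 deviations of same-numbered libraries correlated at -0.05 (R and OF), 0.10 (R and isotype) and -0.0007 (OF and isotype). Block calls in this line thus rest on a shift that its libraries hardly shared.

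The hnRNPs moved in both directions. R raised 5 of the 18 (HNRNPA1, HNRNPA2B1, HNRNPAB, HNRNPC and HNRNPK) and lowered 3 (HNRNPD, HNRNPDL and HNRNPU), and OF raised HNRNPA2B1 and HNRNPAB and lowered HNRNPD, HNRNPDL and HNRNPU. The medians over the 18 were 0.02 and 0.01. Over all genes R called 16.8% higher and OF 18.7%.

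HNRNPA2B1, which binds pre-mRNA and takes part in mRNA transport, stood at 1846 and 2031 CPM with isotype, 2433 and 2557 with R and 2385 and 2325 with OF. All 4 anti-CD20 libraries lay above both isotype libraries, with log2 fold changes of 0.36 ± 0.07 and 0.28 ± 0.07 (SE, adjusted p = 0.00053 and 0.0052) by edgeR. HNRNPA2B1 overlaps CBX3 and NFE2L3 on the other strand, and the count files do not show whether strand was used. CBX3 itself had log2 fold changes of 0.22 and 0.13 (edgeR adjusted p = 0.053 and 0.26). NFE2L3 went the other way, with -0.09 and -0.34 (edgeR adjusted p = 0.65 and 0.052). HNRNPDL, a relative of HNRNPD, stood at 474 and 551 CPM with isotype, 356 and 377 with R and 346 and 351 with OF. It fell by 0.49 and 0.56 on the log2 scale, and HNRNPD, which binds AU-rich elements and marks mRNAs for decay, fell by 0.38 and 0.29. HNRNPA1 (0.25 with R) and HNRNPC (0.24 with R) have many processed copies in the genome, 74 and 9 by name, so reads could be shared between the gene and these copies. HNRNPAB and HNRNPU were no longer called with OF after the GC correction (adjusted p = 0.13 and 0.14).

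RBM3 and CIRBP did not move together. RBM3 stood at 135 and 132 CPM with isotype in U2932, 149.7 and 165 with R and 152 and 153 with OF. All anti-CD20 libraries were above the isotype ones. The rise with R was 0.24 on the log2 scale (SE 0.09, edgeR adjusted p = 0.047), and with OF the value was 0.19 (adjusted p = 0.10), called with the replicate block (adjusted p = 0.079). CIRBP stood at 223 and 200.2 with isotype, 196 and 192 with R and 191 and 204 with OF, with log2 fold changes of -0.12 and -0.10 that were not called. After the GC correction CIRBP was called lower with both (log2 -0.16 and -0.18, edgeR adjusted p = 0.065 and 0.039). The libraries of OF and isotype overlapped for CIRBP.

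RBM25, which controls the choice of splice sites in apoptosis genes, and RBM39, a partner of U2AF2, both fell with OF, by 0.24 and 0.28 on the log2 scale. With R their log2 fold changes were -0.18 and -0.18 (adjusted p = 0.13 and 0.11 by edgeR). The replicate block in edgeR called both lower with R too (adjusted p = 0.081 and 0.079), together with PTBP1 (log2 -0.18, adjusted p = 0.071). These block calls likewise rest on a shift between replicates that the U2932 libraries hardly shared. After the GC correction RBM25 was no longer called with OF (adjusted p = 0.27).

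Of the 8 core genes, R lowered AAR2 and OF lowered AAR2 and SF3B1, and none rose. SF3B1, the U2 particle subunit at the branch point, fell by 0.20 with OF and was no longer called after the GC correction (edgeR adjusted p = 0.35). AAR2 holds PRPF8 while the U5 particle is assembled and is released before splicing. It lies on the plus strand of chromosome 20 (chr20:36236459-36270918, GRCh38) in 4 exons, and no other annotated gene overlaps it. In U2932 it stood at 78.6 and 74.9 CPM with isotype, 53.8 and 52.8 with R and 55.5 and 53.5 with OF. It fell by 0.53 (SE 0.10, adjusted p = 0.00015) and by 0.49 (SE 0.10, adjusted p = 0.00031) on the log2 scale by edgeR, 1.44-fold and 1.41-fold. Its binding partner PRPF8 had log2 fold changes of -0.06 and 0.10, and SNRNP200, EFTUD2, U2AF1, U2AF2 and SF1 were not called. After the GC correction SNRNP200, EFTUD2 and SF1 were called lower with R (edgeR adjusted p = 0.043, 0.040 and 0.090) and EFTUD2 with OF (0.047).

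**Figure D2:**
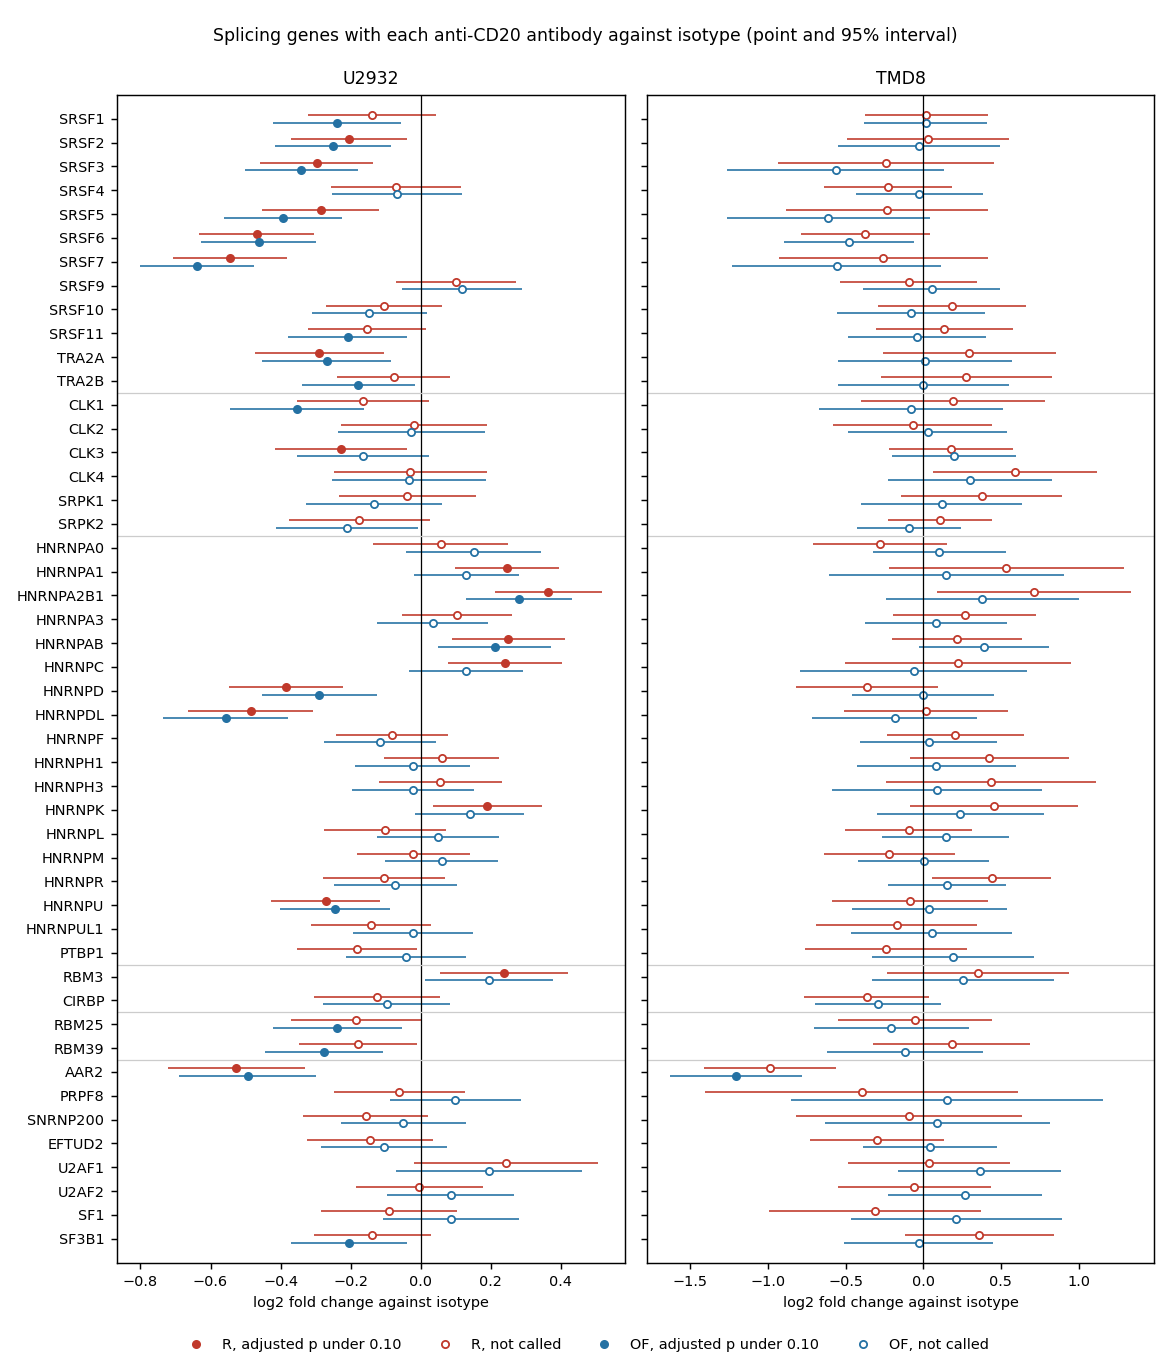
Log2 fold change against isotype (x axis) of the 48 genes in U2932 (left) and TMD8 (right, wider axis) with R (red) and OF (blue), each with its 95% interval, from 2 libraries per condition. Filled points were called at an adjusted p under 0.10, of which there were 17 with R and 19 with OF in U2932 and 0 and 1 in TMD8, where the intervals are wider.

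The R calls in U2932 ranged from 13 to 23 of 48 when each U2932 library was left out in turn. With OF they were 6 without OF replicate 1, 8 without OF replicate 2 and up to 26 without isotype replicate 1. Those that held without OF replicate 1 were SRSF3, SRSF5, SRSF6, SRSF7, HNRNPDL and AAR2. The share of all genes called in these fits is not given, so the counts do not set the members apart from other genes.

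In TMD8 few genes were called. The OF and isotype replicates, which include the 2 libraries that stood apart, differed more than in U2932. Their chi-square per degree of freedom over all genes was 59.1 and 109, beside 2.37 and 10.8 in U2932. The R replicates did not differ more (5.68 in TMD8 and 6.58 in U2932). With R, 0 of the 48 were called by edgeR's quasi-likelihood test, beside 0.647% of the 14227 genes tested. By the same test 4 had an unadjusted p under 0.05, beside 2265 of the 14227 genes. DESeq2 called 2, HNRNPA2B1 and AAR2, and its share of all genes is not given. With OF, 1 was called, AAR2, beside 0.815% of all genes. The members' standard errors with R ran from 0.14 (SRPK2) to 0.42 (PRPF8).

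AAR2 stood at 103 and 85 CPM in the TMD8 isotype libraries, 46.7 and 47.9 with R and 44.9 and 36.4 with OF. Every anti-CD20 library lay below both isotype libraries, including the 2 that stood apart. It was 2.31-fold lower with OF (log2 -1.21 ± 0.18 SE, edgeR adjusted p = 0.091) and 1.98-fold lower with R (log2 -0.99 ± 0.18 SE, adjusted p = 0.10), the second just short of the threshold. The culture block gave adjusted p of 0.0046 and 0.0059. Without the 2 libraries that stood apart the log2 fold changes were -1.20 and -1.12. With OF the adjusted p of AAR2 was between 0.12 and 0.38 when each of 5 TMD8 libraries was left out, and 0.045 without isotype replicate 2.

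**Figure D3:**
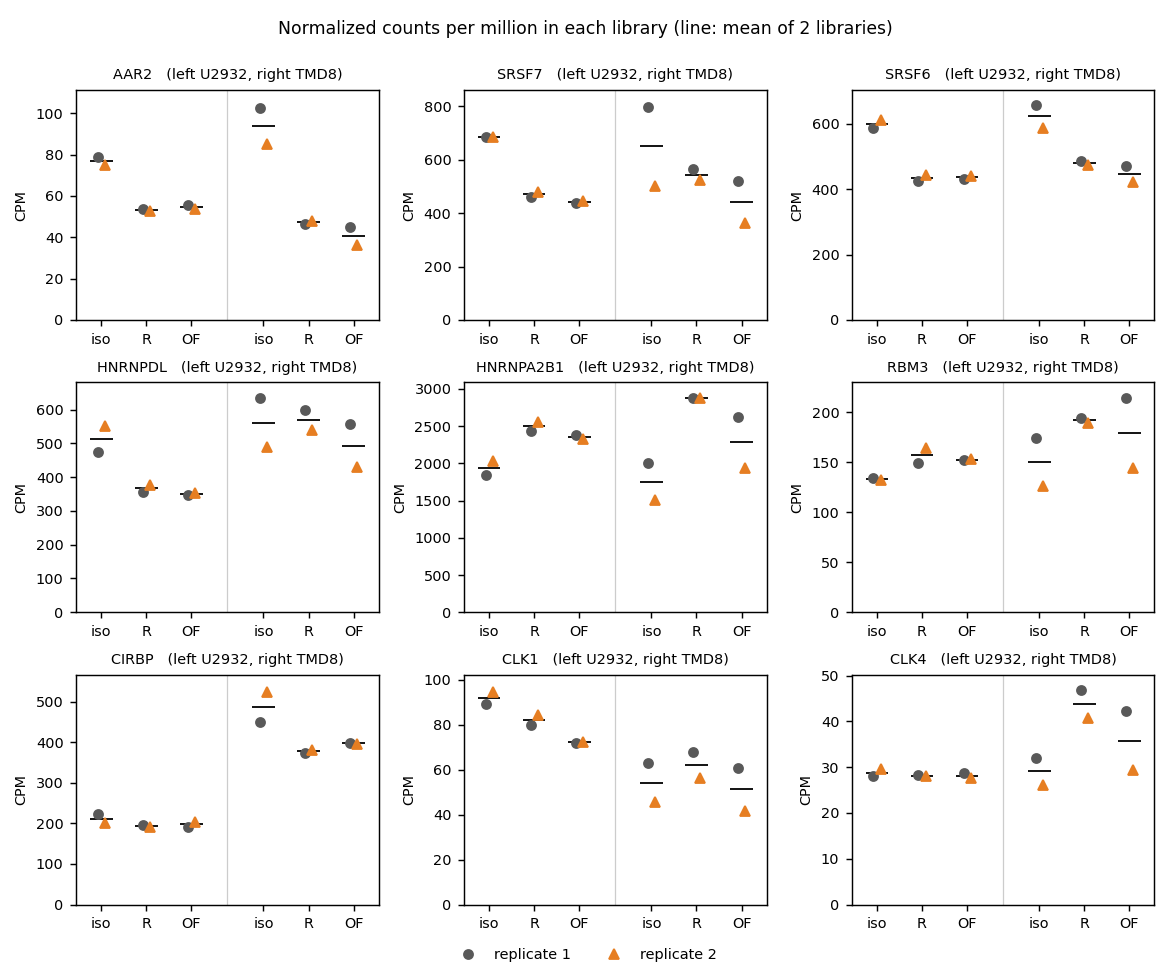
CPM of 9 genes in each library, normalized within each line, with isotype, R and OF in U2932 (left of each panel) and TMD8 (right), replicate 1 as circles, replicate 2 as triangles and a line at the mean of 2 libraries. AAR2 lies lower with both antibodies in both lines, while for SRSF7 and HNRNPDL the TMD8 isotype replicates lie far apart.

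Among the SR proteins in TMD8, the isotype and OF replicates of SRSF7 lay far apart, and its R replicates did not. SRSF7 stood at 798 and 503 CPM with isotype, 563 and 525 with R and 519.9 and 364 with OF, so the conditions overlapped. SRSF6 stood at 658 and 587, 487 and 474, and 472 and 422 in the same order, with no overlap between isotype and either antibody, and was not called (log2 -0.37 and -0.48, edgeR adjusted p = 0.30 with OF). With the culture as a replicate block OF lowered SRSF5, SRSF6 and SRSF7 beside AAR2, 4 of 48 beside 14.3% of all genes. Under the same block R called 7, 1 lower (AAR2) and 6 higher (CLK4, SRPK1, HNRNPA2B1, HNRNPH3, HNRNPK and HNRNPR), beside 17.7%. The block assumes the same shift between replicates for every antibody of a line. In TMD8 deviations of same-numbered libraries correlated at 0.69 for OF and isotype, but at 0.22 for R and OF and 0.23 for R and isotype. The block calls with R in TMD8 thus rest on a shift that the R libraries shared only weakly. With the block and the GC correction together, SRPK1, HNRNPH3 and HNRNPK were no longer called with R (edgeR adjusted p = 0.16, 0.15 and 0.15), while SRSF6 and HNRNPD were called lower (0.053 and 0.098) and HNRNPH1 higher (0.076).

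HNRNPA2B1 stood at 1999 and 1503 CPM with isotype in TMD8, 2872 and 2871 with R and 2627 and 1934 with OF. Both R libraries lay above both isotype libraries, and those of OF and isotype overlapped. Its log2 fold change with R was 0.71 (SE 0.26, edgeR adjusted p = 0.26, and 0.046 with the block). CLK4 stood at 32.1 and 26.1 with isotype, 46.8 and 40.8 with R and 42.3 and 29.3 with OF, and again R and isotype did not overlap while OF and isotype did. Its log2 fold change with R was 0.59 (SE 0.22, edgeR adjusted p = 0.27, and 0.031 with the block). At each replicate number the OF library lay above the isotype library for both genes. R against OF was not called for CLK4 (log2 0.29) or HNRNPA2B1 (log2 0.33, edgeR adjusted p = 0.73 for each). CLK1 (63.0 and 45.6 CPM with isotype, 67.9 and 56.1 with R, 60.9 and 41.8 with OF) and CLK2 (56.8 and 82.6, 66.1 and 66.9, 64.0 and 78.2) overlapped between antibodies. CLK3 stood at 46.8 and 57.5, 55.3 and 62.7, and 59.5 and 60.3, and was not called.

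RBM3 stood at 174 and 127 CPM with isotype in TMD8, 195 and 189 with R and 215 and 144 with OF, and its log2 fold changes of 0.35 and 0.26 were not called. CIRBP stood at 449.8 and 524 with isotype, 374 and 382 with R and 399.6 and 396 with OF. Its anti-CD20 libraries all lay below the isotype ones, and its log2 fold changes of -0.36 and -0.29 were not called (edgeR adjusted p = 0.36 and 0.51). Without the 2 libraries that stood apart CIRBP was called lower with R (log2 -0.25, edgeR adjusted p = 0.091) and was not called with OF (-0.18, 0.39).

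Leaving out the 2 TMD8 libraries that stood apart left 1 library each with OF and isotype, which were then assumed to vary like the R pair. On that footing R changed 17 of 48, 9 higher and 8 lower, beside 30.3% of all genes, and OF changed 12, 6 higher and 6 lower, beside 23.4%. SRSF3 (log2 -0.54 with R and -0.64 with OF), SRSF5 (-0.52 and -0.66), SRSF6 (-0.46 and -0.49) and SRSF7 (-0.56 and -0.63) were then lower with both antibodies, and CLK4 (0.44 and 0.39) and HNRNPA2B1 (0.52 and 0.38) higher. RBM25 was lower with both as well (-0.26 and -0.32). This count depends on 4 libraries, and the spread behind it comes from 1 pair.

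R and OF, which bind different epitopes, were compared directly within each line. None of the 48 was called in U2932 or in TMD8 by edgeR's quasi-likelihood test, beside 0.00683% and 0% of all genes. By the same test 0 had an unadjusted p under 0.05 in either line, beside 747 of 14635 genes in U2932 and 582 of 14227 in TMD8. DESeq2 also called 0 in both. In U2932 the 95% intervals of the log2 difference (R minus OF) lay within -0.37 and 0.38 for every member, so differences beyond these bounds lie outside the intervals. The largest difference was that of CLK1 (0.19). In TMD8 the intervals reached from -1.56 (PRPF8) to 1.15 (HNRNPA1), which leaves large differences undetectable at this spread. The smallest adjusted p-values of any member were 0.91 in U2932 and 0.73 in TMD8.

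In TMD8 the median difference between R and OF over the 48 was 0.16, beside 0.01 over all genes. The members' transcripts were poorer in GC than most, with a median of 45.4% beside 49.8% over all annotated protein-coding genes. After the GC correction the members' median difference was 0.02, and without the 2 libraries that stood apart it was 0.04. In the latter fit HNRNPD was called (log2 -0.33, edgeR adjusted p = 0.098), beside 4% of all genes.

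**Figure D4:**
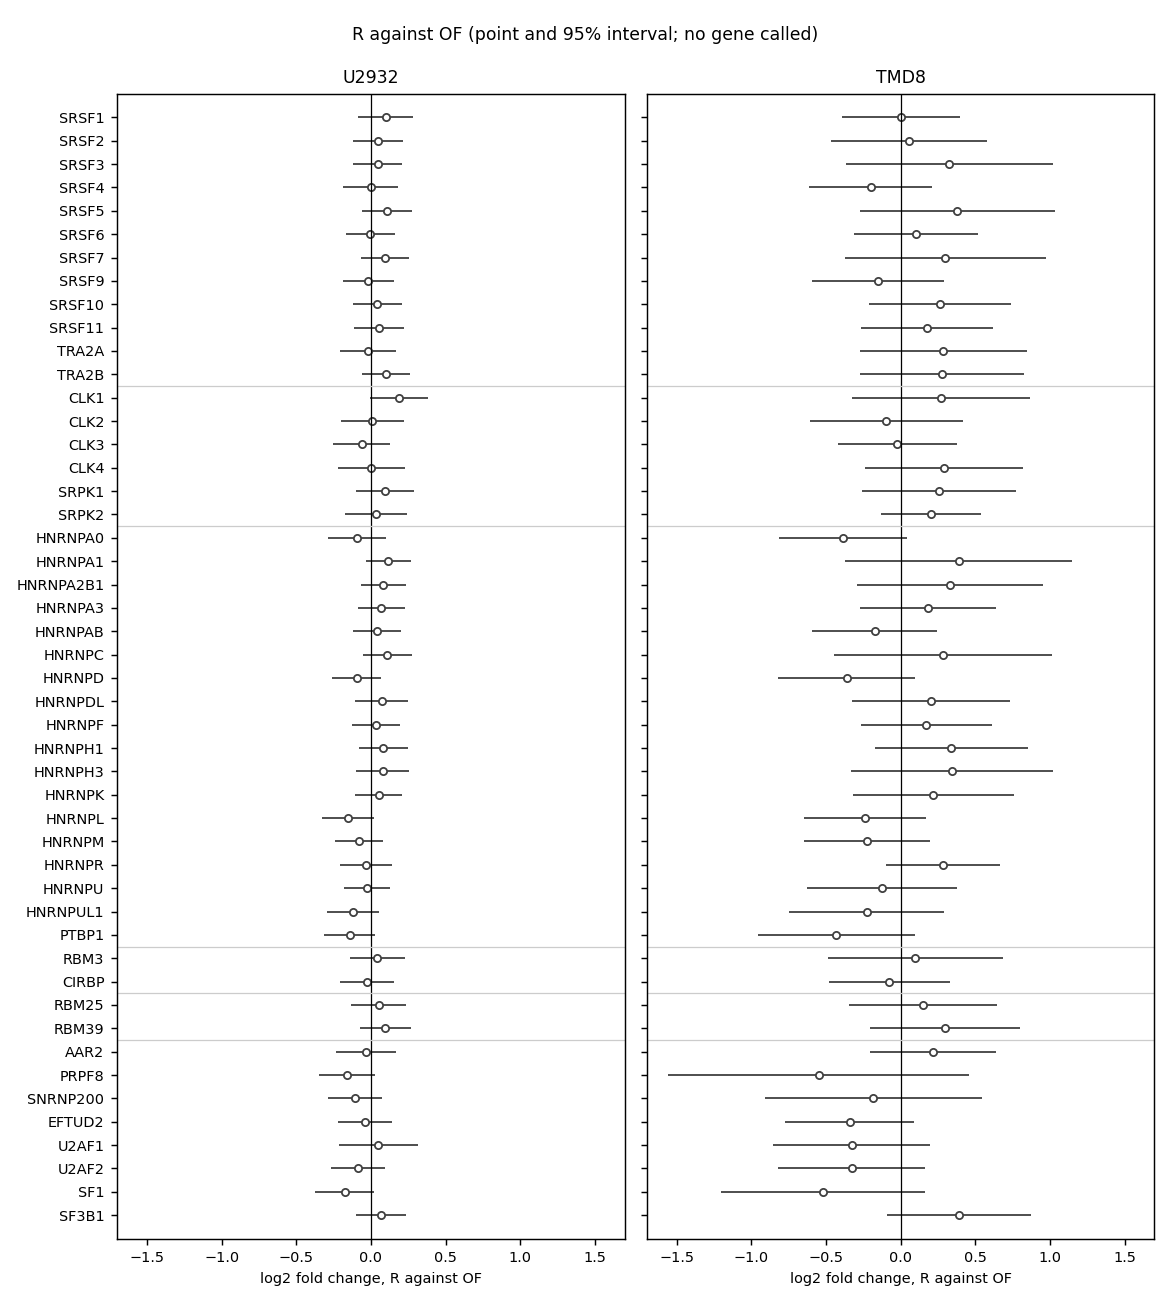
Log2 fold change of R against OF (x axis) for the 48 genes in U2932 (left) and TMD8 (right), with 95% intervals, from 2 libraries per condition on the same axis range. Every interval spans 0, and the intervals in TMD8 are wider than in U2932.

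Whether the response differed between the lines was tested over all 12 libraries. None of the 48 was called for R or for OF by edgeR, beside 0.321% and 0.105% of the 16187 genes tested. At an unadjusted p under 0.05 by edgeR the counts were 5 of 48 for R and 1 for OF, beside 1924 and 1369 of the 16187 genes. DESeq2 called 1 of the 48 for each, and its share of all genes is not given. AAR2 fell further in TMD8 with OF, by 0.71 on the log2 scale (95% interval -1.12 to -0.30, adjusted p = 0.25), and by 0.47 with R (-0.88 to -0.06, adjusted p = 0.35). With the culture as a block, 5 of 48 differed for R (TRA2A, CLK4, HNRNPDL, HNRNPR and SF3B1), beside 6.04% of all genes. For OF 1 differed (AAR2), beside 2.23%. The block calls for R rest on a shift between replicates that the TMD8 R libraries shared only weakly with those of OF and isotype. Without the 2 TMD8 libraries that stood apart the counts were 8 and 3, beside 16% and 5.28%.

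Promoters of the genes that moved were read from RefSeq sequences on GRCh38.p14, where 44 of the 48 genes had 65 promoter windows from 250 bases before to 50 bases after a start. The letters GAANNTTC and TTCNNGAA, paired units of the heat shock element bound by HSF factors, were searched on both strands (they are their own reverse complements). GAANNTTC occurred in the windows of HNRNPA2B1, HNRNPC and RBM3, 3 of 65 (4.62%), beside 6.77% of all 35116 windows, and TTCNNGAA in those of HNRNPA2B1 and RBM3, beside 7.74% of all. HNRNPA2B1 alone held 3 units in a row (GAANNTTC overlapping TTCNNGAA), found in 0.490% of all windows. At these shares a match is a description of the letters, not a site, and a link between the letters and the changes was not tested. The 250 bases before the start are shown for these 3 genes because they carry these letters, which are in capitals:

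HNRNPA2B1: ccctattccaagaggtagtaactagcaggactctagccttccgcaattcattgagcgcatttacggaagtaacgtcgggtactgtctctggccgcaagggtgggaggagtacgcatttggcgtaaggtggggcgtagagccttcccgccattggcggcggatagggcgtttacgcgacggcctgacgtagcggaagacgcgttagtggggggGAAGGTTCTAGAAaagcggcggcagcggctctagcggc
HNRNPC: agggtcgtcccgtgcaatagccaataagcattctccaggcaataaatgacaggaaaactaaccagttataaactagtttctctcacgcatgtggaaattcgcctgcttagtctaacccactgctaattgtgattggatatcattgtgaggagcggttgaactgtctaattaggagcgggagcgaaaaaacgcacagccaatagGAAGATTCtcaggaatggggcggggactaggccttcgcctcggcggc
RBM3: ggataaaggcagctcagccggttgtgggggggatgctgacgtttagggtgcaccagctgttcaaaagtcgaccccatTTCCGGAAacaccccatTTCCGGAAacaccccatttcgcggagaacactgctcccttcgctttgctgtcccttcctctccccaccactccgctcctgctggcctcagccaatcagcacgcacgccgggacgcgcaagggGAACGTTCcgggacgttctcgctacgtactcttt

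They are chr7:26200747-26200996 on the minus strand, chr14:21269443-21269692 on the minus strand and chrX:48574234-48574483 on the plus strand. In HNRNPA2B1 the run of 3 units starts 38 bases before the start, in HNRNPC GAANNTTC starts 47 bases before it, and in RBM3 GAANNTTC starts 34 bases and TTCNNGAA 173 and 156 bases before it.

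For the genes that fell, the promoters of AAR2 and SRSF7 are shown, the members called at 1.5-fold or more against isotype without the block, AAR2 with OF in TMD8 and SRSF7 with OF in U2932. Capitals mark CCGGAAG, the core bound by ETS factors (here on the other strand, read as CTTCCGG), in AAR2, and TATAAA, the TATA box letters, in SRSF7:

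AAR2: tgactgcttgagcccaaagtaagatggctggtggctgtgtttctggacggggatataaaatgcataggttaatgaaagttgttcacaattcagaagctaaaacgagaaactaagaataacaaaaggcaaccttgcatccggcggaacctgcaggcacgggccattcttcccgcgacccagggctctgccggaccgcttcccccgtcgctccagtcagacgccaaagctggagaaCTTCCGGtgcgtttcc
SRSF7: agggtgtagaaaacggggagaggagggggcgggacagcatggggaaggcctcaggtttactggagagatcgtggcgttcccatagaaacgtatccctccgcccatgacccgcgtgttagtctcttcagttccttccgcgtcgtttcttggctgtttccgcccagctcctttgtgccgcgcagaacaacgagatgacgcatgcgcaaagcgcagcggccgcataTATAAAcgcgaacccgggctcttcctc

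They are chr20:36236228-36236477 on the plus strand and chr2:38751362-38751611 on the minus strand. CCGGAAG begins 16 bases before the AAR2 start and occurred in 15.4% of the members' windows beside 10.3% of all windows (both strands), and TATAAA begins 27 bases before this SRSF7 start and occurred in 12.3% beside 11.5%. The other SRSF7 window held no TATAAA. Also searched on both strands were the CRE (0 of 65 windows beside 1.85% of all), its part TGACG (26 windows, 40.0% beside 24.6%), CCAAT (24, 36.9% beside 34.6%), the E box CACGTG (12, 18.5% beside 7.26%) and the YY1 letters (0 beside 1.20%).

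Beyond the 48, a list of 134 other splicing genes gave 131 tested in U2932. R raised 21 and lowered 32, and OF raised 22 and lowered 35, which is 40.5% and 43.5% beside 34.2% and 36.4% of all genes. SNRPD3, a core Sm protein of the spliceosomal particles, had the smallest adjusted p with both antibodies and rose by 1.26 and 1.34 on the log2 scale. SNRPD2, another Sm protein, rose by 0.74 and 0.68, and SLU7, which helps to choose the splice acceptor, fell by 0.79 and 0.84. In TMD8, 0 of 132 were called with either antibody by edgeR, and under the culture block 7 rose and 11 fell with R (13.6% beside 17.7% of all genes) and 2 rose and 10 fell with OF (9.09% beside 14.3%).

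Heat shock genes moved in the same U2932 libraries: 10 of 11 tested were higher with R and 10 with OF, beside 16.8% and 18.7% of all genes higher, with median log2 fold changes of 0.86 and 0.89, and none was lower. In TMD8 their medians were 0.47 and 0.35 and 0 were called without the block, 5 and 3 of 11 with it, beside 17.7% and 14.3% of all genes called in either direction. Their part in the values of RBM3, HNRNPA2B1 and the other members was not tested. The counts are per gene, so they do not separate productive isoforms from those with the poison exons by which many SR protein genes limit their own level.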

How the data were processed

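RNA from 12 libraries was sequenced (NEBNext Ultra II RNA libraries), and the authors deposited raw counts of reads per Ensembl gene, without normalization. The submitters' processing notes name Trim Galore 0.6.0, cutadapt, FastQC, STAR 2.7.0e, DESeq2 1.26.0 and GRCh38. The annotation release and the strand setting of the counting are not given in the sources used here. Names, positions, lengths and GC content came from GENCODE 29 (GRCh38), which named 58611 of the 58884 genes.

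The analysis used edgeR 4.0.16 in R 4.3.3, with TMM normalization, the filterByExpr filter (minimum count 10), and a quasi-likelihood fit to each line's 6 libraries with 1 mean per antibody, or to all 12 for comparisons between lines. P-values were adjusted over all genes tested (Benjamini-Hochberg), and genes were called under 0.10. The study names DESeq2, used here (1.42.0) as an alternative. Intervals are 95%. Comparisons across lines use TMM over all 12 libraries, and CPM by library use TMM within a line.

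The labels say that each line was split into separately kept cultures before treatment. That a replicate number marks the same culture under each antibody was taken from this and is not stated for each library. Deviations of same-numbered libraries correlated at -0.05 (R and OF), 0.10 (R and isotype) and -0.0007 (OF and isotype) in U2932, and at 0.22, 0.23 and 0.69 in TMD8. The GC correction removed each library's lowess trend (span 0.3) on GC content. Alternatives included other normalizations, filters, limits, the replicate block and leaving out each library, and DESeq2 with the block was added after seeing the data. The fit was tested on simulated data. The genes, lists, motifs and tests were chosen with earlier results of these data known. All 48 genes could be named, with every library given for CLK1 to CLK4, RBM3, CIRBP and those called at 1.5-fold or more against isotype. SRSF6, SRSF3, HNRNPDL and HNRNPA2B1 were given by library, and the promoters shown, after their values were seen. Of the other splicing genes, the 5 with the smallest adjusted p per comparison could be named.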

Additional observations from a re-analysis of the deposited data

Results flagged for a closer look

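With the culture as a replicate block, the response to R differed between TMD8 and U2932 for 5 of the 48 genes, beside 6.04% of all 16187 genes tested. This was a test of the difference itself (TMD8 minus U2932, log2, edgeR's quasi-likelihood test with Benjamini-Hochberg adjustment over all genes). The differences were 0.60 for TRA2A (SE 0.16, adjusted p = 0.065), 0.62 for CLK4 (SE 0.16, adjusted p = 0.065), 0.51 for HNRNPDL (SE 0.15, adjusted p = 0.095), 0.54 for HNRNPR (SE 0.14, adjusted p = 0.065) and 0.49 for SF3B1 (SE 0.14, adjusted p = 0.087). For OF the difference was -0.71 for AAR2 (SE 0.16, adjusted p = 0.052), the 1 member called, beside 2.23% of all genes. None of the 6 was called without the block in the edgeR fit to all 12 libraries. The block assumes the same shift between replicates for every antibody of a line. In TMD8 deviations of same-numbered libraries correlated at 0.69 for OF and isotype, but at 0.22 for R and OF and 0.23 for R and isotype. The differences called for R thus rest on an assumption that held only weakly for R in TMD8. With the block and the GC correction together, the adjusted p-values were 0.14 for TRA2A, 0.18 for CLK4, 0.13 for HNRNPDL, 0.11 for HNRNPR and 0.20 for SF3B1, and 0.069 for AAR2 with OF. In TMD8, HNRNPDL stood at 634 and 489 CPM with isotype and 599 and 539 with R, so its conditions overlapped there. HNRNPR stood at 122 and 112 with isotype and 165 and 152 with R in TMD8, and at 279 and 306 with isotype and 266 and 279 with R in U2932.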

How the results depend on the processing

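Across single genes and alternatives, in the 6 comparisons within a line, 5014 values stayed on their side of the threshold, 146 lost their call, 168 gained one and 0 called values changed sign. The numbers of the 48 called were 17 for R and 19 for OF against isotype in U2932, 0 and 1 in TMD8, 0 for R against OF in each line, 0 for both responses between lines and 20 between lines under isotype. With all 12 libraries in one fit, which shares 1 spread over both lines, they were 2 and 3 in U2932 and 6 and 3 in TMD8. Library size alone gave 30 for R in U2932 and 1 for R in TMD8, at least 10 counts in every library gave 1 and no filter gave 2 for R in TMD8. DESeq2 gave 2 for R in TMD8 and 1 for each response between lines. The limit of 1.5-fold left 0 for R and 1 for OF in U2932 and 11 between lines, and an adjusted p under 0.05 left 0 for OF in TMD8. The replicate block gave 7 for R and 4 for OF in TMD8, 5 for the R response and 1 for the OF response between lines. Block and GC correction together gave 7, 3, 1 and 1 in that order. The R response called there was that of CLK3 (edgeR adjusted p = 0.065), which the block alone did not call. DESeq2 with the replicate block (chosen after seeing the data) gave 8, 5, 5 and 1. In U2932 the block changed no call but those of PTBP1, RBM25, RBM39, SRPK2 and RBM3 given above. Without OF replicate 2 and isotype replicate 2 of TMD8 the counts were 17, 12, 1 for R against OF, 8, 3 and 33. Leaving out each library in turn gave 13 to 23 for R and 6 to 26 for OF in U2932, 0 to 1 for R and for OF in TMD8, 0 for R against OF in both lines, 0 to 1 for each response between lines and 16 to 29 between lines. The cause of these changes was not tested, except that a stricter limit calls fewer by construction. For the fits leaving out each library and the fit of all 12 libraries, the share of all genes called is not given. Nor is it given for DESeq2 with or without the block, or for block and GC correction together. The same holds for the other filters, the limit of 0.05 and library size alone in TMD8. Counts from these fits do not set the members apart from other genes. Each condition rests on 2 cultures, so the estimate of the spread is rough, above all in TMD8.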
